A study of Mus musculus with 6 samples.

Results

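The genes described here are 8 that mark cholangiocytes, the epithelial cells that line the bile ducts: Krt19, Krt7, Epcam, Sox9, Spp1, Cftr, Prom1 and Muc1. They were given as a cell type list, and they are 8 of the 21887 protein-coding genes of the RefSeq annotation used. For each gene, every accessible interval that overlapped the gene span or the 10 kb to either side was taken from 1 list of interval positions. The list came from ATAC-seq, an assay that uses a transposase to tag open DNA for sequencing. Livers were from wild-type males fed a high-fat diet, with 3 libraries from 129S1/SvImJ and 3 from C57BL/6J, both inbred strains. The deposited list combined the libraries, held 120905 intervals of mm10 and gave positions alone, with no score, read count, strain or library. The difference between the strains could therefore not be measured, the depth is unknown, and there are no replicates from which an error could be given. The protocol in the labels calls the transposed material LMs without explaining it, so which cells of the liver entered the reaction is not known. An antibody entry naming Esrrg also stands in the labels of the 6 libraries, although this assay uses no antibody.

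Cholangiocytes are a minority of liver cells. They modify the bile that hepatocytes secrete, mainly by moving chloride, bicarbonate and water across an epithelium held together by simple keratins and adhesion molecules. Keratins 7 and 19 are the classical stains that set bile duct cells apart from hepatocytes, which contain keratins 8 and 18 only. Sox9, Epcam, Spp1 and Prom1 also mark the ductular cells that multiply in injured liver, and several of the genes are active in other tissues or liver cell types. In bulk material, fewer cells of a type and weaker openness in each cell cannot be told apart. An interval shows a position called open in the combined libraries, not the expression of a gene.

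Counts in the span and its 10 kb flanks ranged from 0 to 9. Krt19 and Krt7 had no interval at all, Epcam had a lone interval, and Prom1, Cftr, Spp1, Sox9 and Muc1 had 9, 8, 4, 3 and 2. Thus 6 of the 8 genes (75%) had an interval in the span or its 10 kb flanks, against 83.9% of all protein-coding genes. The median was 2.5 intervals per gene, against 3 over all protein-coding genes (quartiles 1 and 5). Of the 27 intervals, 17 overlapped a gene span and 10 lay in a flank, and 5 of the 8 genes (62.5%) held an interval inside the span, against 69.1% of all protein-coding genes. Cftr and Prom1, the longest of the 8, contributed 17 of the 27.

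**Figure D1:**
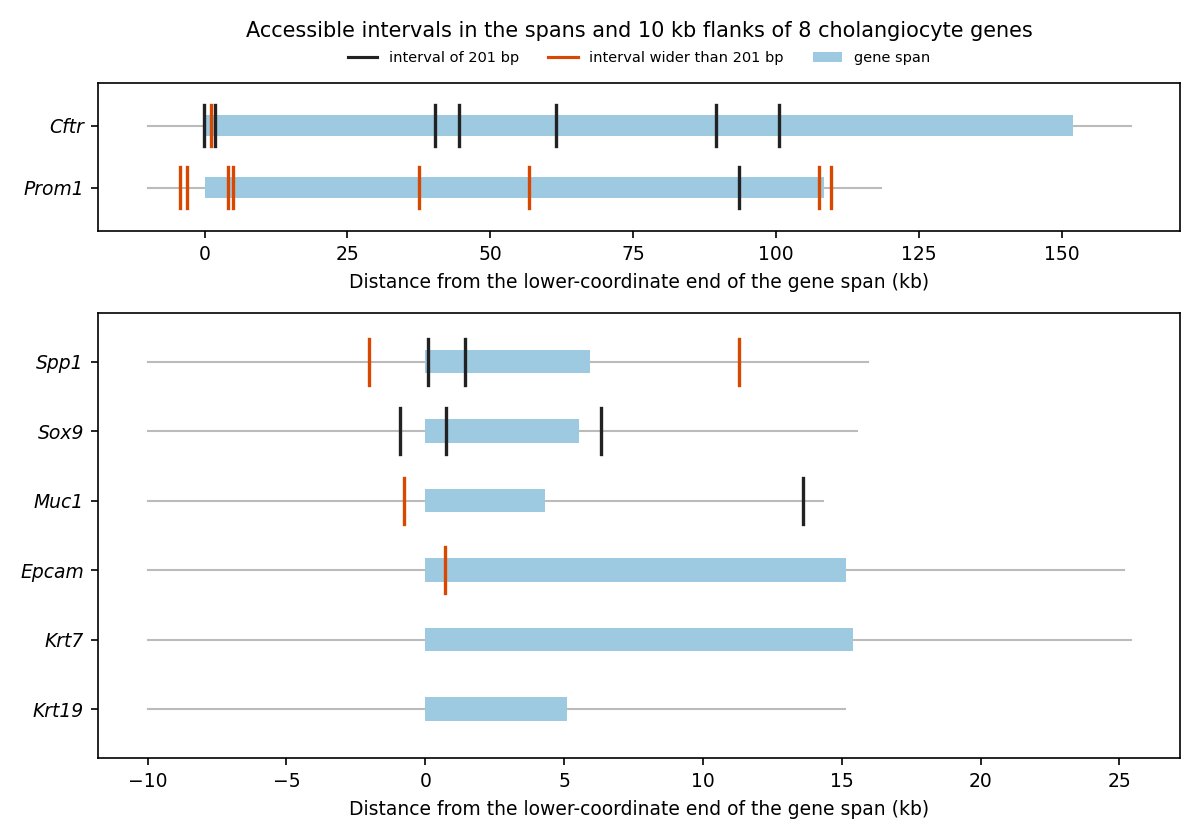
Each row is a cholangiocyte gene, drawn from 10 kb below its lower-coordinate end to 10 kb above its upper-coordinate end, with distance in kb on the x axis. Blue bars are gene spans, black ticks intervals of 201 bp and orange ticks wider intervals. Krt7 and Krt19 carry no tick, and Prom1, with 9 intervals, carries 1 black tick where Cftr, with 8, carries 7.

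Promoter sequence was available from RefSeq (GRCm38.p6, the assembly behind mm10) for 6 of the 8 genes, as 250 bases before to 50 after each listed start. No such entry was used for Krt19 and Sox9. The sequences of Cftr, Spp1 and Krt7 are shown because they differ in whether an interval reached the promoter. Capitals mark the bases that lie inside an interval, and lower case marks the rest. The windows are chr6:18170437-18170736 for Cftr, chr5:104434861-104435160 for Spp1 and chr15:101412153-101412452 for Krt7, all on the plus strand.
Cftr: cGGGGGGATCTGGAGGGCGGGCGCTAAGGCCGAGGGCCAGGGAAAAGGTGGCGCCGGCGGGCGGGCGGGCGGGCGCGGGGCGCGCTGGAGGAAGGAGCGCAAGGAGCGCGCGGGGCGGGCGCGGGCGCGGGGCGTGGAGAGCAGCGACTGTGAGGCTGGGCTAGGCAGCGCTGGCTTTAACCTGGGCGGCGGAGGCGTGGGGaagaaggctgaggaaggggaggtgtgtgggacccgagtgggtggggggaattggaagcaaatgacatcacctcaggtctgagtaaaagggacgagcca
Spp1: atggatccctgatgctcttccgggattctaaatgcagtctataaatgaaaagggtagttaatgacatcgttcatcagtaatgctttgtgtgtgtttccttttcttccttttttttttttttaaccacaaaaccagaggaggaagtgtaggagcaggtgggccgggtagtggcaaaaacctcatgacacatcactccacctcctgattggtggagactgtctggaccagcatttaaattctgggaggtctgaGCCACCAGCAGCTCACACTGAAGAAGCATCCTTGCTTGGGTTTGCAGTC
Krt7: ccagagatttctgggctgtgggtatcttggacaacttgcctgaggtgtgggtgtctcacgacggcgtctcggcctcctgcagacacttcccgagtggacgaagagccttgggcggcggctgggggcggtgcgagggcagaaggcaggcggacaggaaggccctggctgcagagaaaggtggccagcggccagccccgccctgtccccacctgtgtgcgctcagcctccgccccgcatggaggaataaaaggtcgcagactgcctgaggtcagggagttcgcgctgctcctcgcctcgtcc
In Cftr, 201 of the 300 bases lay inside an interval, which was the whole of that interval. In Spp1 the interval began 1 base after the start and covered the last 49 bases of the window. No base of the Krt7 window was covered, and the nearest interval was 32652 bp away.

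An interval overlapped a listed promoter in 2 of the 6 genes (Cftr and Spp1), against 52.1% of the 17492 protein-coding genes with an entry. Within 1 kb of a listed start, 5 of the 6 had an interval, all but Krt7, against 61.7% of the same genes. Promoters differ in how often they were open according to their number of CG dinucleotides, the sites of DNA methylation. Over 21263 listed promoters, 9.73% of those with 0 to 4 CGs were overlapped by an interval, 27.2% with 5 to 9, 63.7% with 10 to 19, 78.8% with 20 to 29 and 78.6% with 30 or more. The Cftr promoter had 31 CGs, more than 86.0% of listed promoters, and 79.4% of promoters within 3 CGs of that number were overlapped. Krt7 had 21 CGs and no interval, whereas 76.7% of promoters of similar CG number were overlapped. The reverse held at Spp1, whose 2 listed promoters had 3 CGs each. Of promoters with a similar number, 12.0% were overlapped, and the upper-case bases above show that the outer Spp1 promoter was among them. Epcam with 11 CGs, Muc1 with 6 and the outer Prom1 start with 10 had no interval in the promoter window, and the shares at similar CG number were 49.9%, 22.0% and 44.0%.

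**Figure D2:**
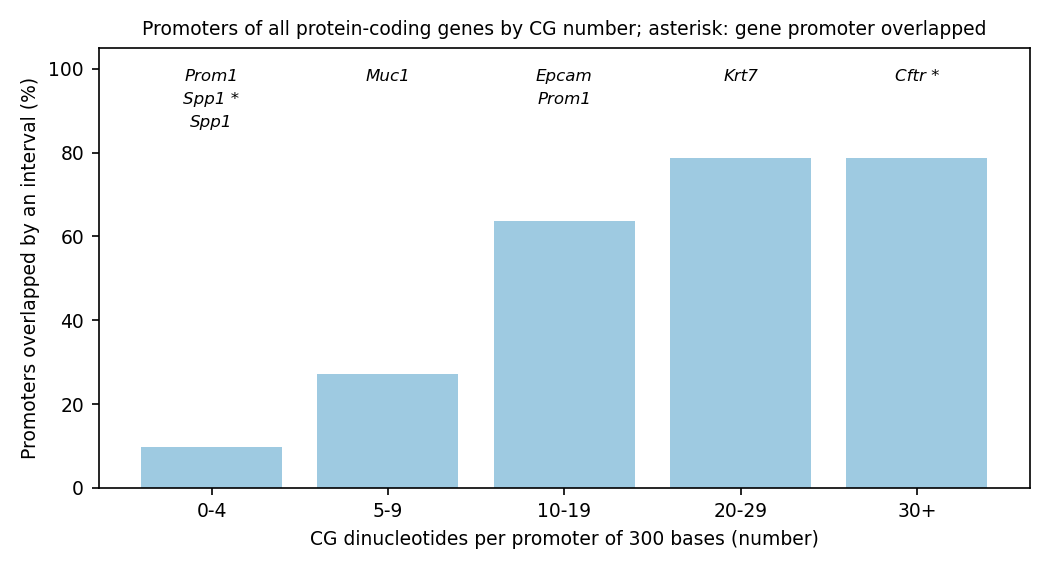
The bars give the percentage of all listed protein-coding promoters that an interval overlapped, by number of CG dinucleotides per 300 bases. Gene names stand over the class of each of their listed starts, with an asterisk where an interval overlapped it. Spp1 is marked in the class of 0 to 4 CGs (9.73%), and Krt7 is unmarked in the class of 20 to 29 (78.8%).

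Short sequence motifs were searched on both strands of the promoters, with overlaps between motifs allowed. The GC box GGGCGG, which Sp1-type factors bind, was in the promoters of Cftr, Krt7, Epcam, Muc1 and Prom1 and in 46.2% of all listed promoters. TATAAA, the core of the TATA box, was in those of Spp1 and Muc1 (12.6% of all), and CCAAT in those of Cftr, Spp1, Muc1 and Prom1 (38.2% of all). GGAATG, the core bound by TEAD factors, was found in Muc1 (13.6% of all), and TGGGAA, that of the Notch effector RBPJ, in Prom1 (24.5% of all). These are matches of letters anywhere in the window and not measured binding. The TATAAA of Spp1 stands near the left edge of the sequence printed above, far from the start.

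At gene ends the picture depended on distance. An interval overlapped the 1 kb around an end of the span in 6 of the 8 genes (75%), against 61.5% of all protein-coding genes. Sox9 had intervals at both ends, which 9.68% of all protein-coding genes had. With a window of 500 bp the count was 2 of 8, Cftr and Spp1, against 56.0% of all protein-coding genes. In the whole annotation 91.0% of the 13453 genes with an interval within 1 kb of an end also had one within 500 bp, whereas 2 of the 6 cholangiocyte genes did. This last comparison was not planned, so it is a description and not a test. The closest interval centre lay 101 bp from an end in Spp1 and 149 bp in Cftr. It lay 724 bp away in Epcam, 754 bp in Sox9, 756 bp in Muc1 and 966 bp in Prom1. Without the intervals of 201 bp, the narrowest width in the list, 3 genes kept an end interval (Epcam, Prom1 and Muc1), against 51.7% of all protein-coding genes.

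Keratin 19 and keratin 7 are the intermediate filament proteins that define bile duct epithelium in histology. Krt19 (chr11:100140810-100145926, 5.12 kb) had no interval in a window of 25.1 kb. Of 1883 protein-coding genes within 25% of its length, 22.6% likewise had none and the median was 2. The nearest interval on its upper side was 23.2 kb away, and the nearest on its lower side was 566 kb away. Krt19 therefore lay in a stretch of 595 kb without an interval, chr11:99574402-100169102. Of the 120884 gaps between neighbouring intervals, 99 (0.0819%) were longer, and the median gap was 10.3 kb. The stretch held 45 protein-coding genes, of which 10 were keratin genes, Krt19 included, and 20 keratin-associated protein genes of hair. Its only protein-coding neighbour within 10 kb, Krt15, a keratin of stratified epithelia, had no interval either.

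The wider type I keratin cluster around Krt19, of 27 keratin genes over 1040 kb, held 5 intervals, or 0.482 per 100 kb, against 4.21 per 100 kb of chromosome 11. Of those 27 genes, Krt10 and Krt23 had an interval inside the span, against 69.1% of all protein-coding genes. Krt7 (chr15:101412403-101427806, 15.4 kb) sits in the type II keratin cluster, which was less empty. Its 26 keratin genes over 684 kb held 22 intervals, or 3.22 per 100 kb, against 4.97 per 100 kb of chromosome 15, and 8 of the 26 genes had an interval inside the span, Krt8 and Krt18 among them, against the same 69.1%. For neither cluster was the 69.1% matched for gene length. Among genes similar in length to Krt19 the share was 51.7%, and among those similar to Krt7 it was 76.0%. Around Krt7 itself the free stretch was 74.0 kb, and 4.62% of all gaps were longer. The nearest intervals lay 32.9 kb below, inside the long non-coding RNA gene Gm35853, and 25.6 kb above, inside Krt88. Neither the long non-coding RNA gene Gm671, 211 bp below Krt7, nor the keratin gene Krt87, 3684 bp above it, overlapped an interval. Among 2943 genes of similar length 11.5% had no interval, and the median was 3. The keratin clusters were examined after the zero counts had been seen.

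Epcam encodes a homophilic adhesion molecule of epithelial cells. The gene (chr17:87635979-87651127, 15.1 kb) had 1 interval, of 243 bp at chr17:87636582-87636824, centred 724 bp downstream of the listed start. The interval was wider than 88.4% of all intervals. The remaining 14.3 kb of the gene and both flanks were free of intervals. Of 2896 genes of similar length, 74.3% had more intervals, 13.9% had the same number and 11.8% had none. The lower quartile of these genes was 1. The next intervals were 22.3 kb below the gene and 14.4 kb above it. Epcam thus stood at the lower quartile for its length, and its only interval was a comparatively wide one close to the start.

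Sox9 encodes a transcription factor that marks the embryonic ductal plate and remains on in bile ducts. The gene (chr11:112782210-112787757, 5.55 kb) had 3 intervals, all of exactly 201 bp. They were centred 921 bp outside the lower-coordinate end, 754 bp inside it, and 771 bp beyond the upper-coordinate end, so the gene was bracketed within 1 kb of each end. Among 1925 genes of similar length, 59.9% had fewer intervals and 21.6% had more. Below Sox9 no protein-coding gene was listed for 1060 kb, and that region held 13 intervals, or 1.23 per 100 kb. Above it, the 457 kb up to Slc39a11 held 20, or 4.38 per 100 kb, against 4.21 per 100 kb of chromosome 11. Intervals were thus sparse on the lower side and near the chromosome average on the upper side. These surroundings were examined after the values of Sox9 had been seen.

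Spp1 encodes osteopontin, a secreted matrix glycoprotein that ductular cells make and that macrophages also produce. It had the highest number of intervals among the short members, with 4 in a gene of 5.94 kb (chr5:104435111-104441053). An interval of 215 bp was centred 2030 bp upstream of the outer start, and the next, of 201 bp, 101 bp downstream of it. The third, of 201 bp, lay 365 bp downstream of the inner listed start, and the last, of 208 bp, 5359 bp beyond the far end of the gene. Each of the 2 listed Spp1 starts therefore had an interval centred a short way downstream. Of 1954 genes of similar length, 77.0% had fewer intervals, 13.7% had the same number and 9.31% had more. No other gene overlapped the window, and Spp1 was the closest protein-coding gene to each of the 4 intervals.

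Cftr encodes the apical chloride and bicarbonate channel through which secretin-stimulated cholangiocytes drive bile flow. Its 8 intervals were spread unevenly over 152 kb (chr6:18170687-18322770). The first was the promoter interval printed above, at chr6:18170438-18170638 and centred 149 bp upstream of the start, and 2 followed 1182 and 1845 bp downstream of it. After a gap of 38.3 kb, 5 more were centred 40301, 44537, 61580, 89427 and 100547 bp downstream of the start. The last 51.4 kb of the gene held none, and the next interval beyond it was 50.2 kb past the gene, in Cttnbp2. Among 975 genes of similar length the median was 9, 39.3% had fewer than Cftr and 55.2% had more. Exons were not annotated in the table used, so intronic and exonic positions were not separated.

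Prom1 encodes prominin-1, also known as CD133, a membrane protein of epithelial protrusions and a marker of hepatic progenitor cells. The gene (chr5:43993621-44102047, 108 kb) lies on the minus strand and had 9 intervals, the most of the 8 genes. At the outer start, intervals were centred 1586 bp upstream and 655 bp downstream. Another was centred 7590 bp downstream of the inner listed start, which is 14869 bp from the upper-coordinate end. Towards the 3′ side, a group of 4 lay within 5 kb of the lower-coordinate end, 2 outside it (4381 and 3093 bp) and 2 inside (4122 and 4920 bp). The other two were well inside the gene, 37450 bp from the lower end and 51588 bp from the upper end, and that second position held the widest interval of all 27, at 273 bp. In 1435 genes of similar length the median was 7. Fewer intervals than in Prom1 were found in 57.1% of them and more in 36.2%.

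Muc1 encodes a transmembrane mucin of the apical epithelial surface. The gene (chr3:89229056-89233381, 4.33 kb) had no interval inside its span and 2 in the flanks. That of 206 bp was centred 756 bp upstream of the start, between Muc1 and Thbs3. The other, of 201 bp, lay inside the neighbouring gene Trim46, centred 9278 bp beyond the Muc1 span, and was the only 1 of the 27 intervals that overlapped another gene. With a flank of 5 kb Muc1 kept 1 interval. Among 1688 genes of similar length the median was 2, the number found in Muc1, with 41.9% lower and 35.9% higher.

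Read against genes of similar length, 3 members lay above the median (Spp1, Sox9 and Prom1), Muc1 lay on it, and 4 lay below (Cftr, Epcam, Krt7 and Krt19). Counted inside the spans alone, with no flank, 1 member lay above it. All 8 were within the range from the 5th to the 95th percentile of such genes, where the 5th percentile was 0 for the 6 shorter genes. A gene equal to the median was not counted as above it. Among the genes similar in length to Muc1, 35.9% lay above their median of 2. No share over all protein-coding genes is given for the 3 of 8, which is therefore not read as a deficit.

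**Figure D3:**
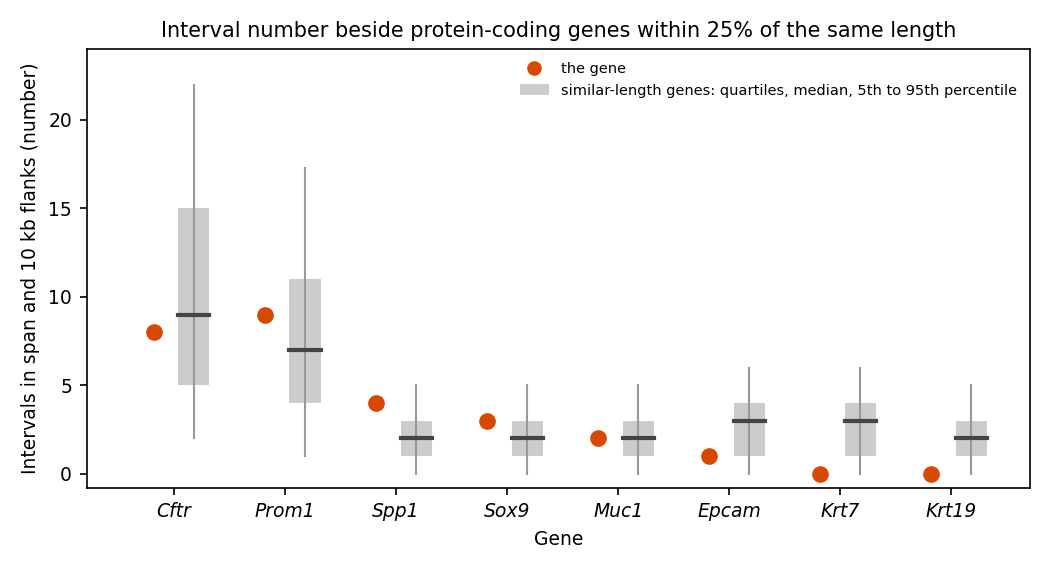
For each cholangiocyte gene the orange point is its number of intervals in the span and 10 kb flanks. The grey box beside it gives the quartiles of protein-coding genes within 25% of its length, the dark line their median and the thin line the 5th to 95th percentile. Spp1, with 4 intervals, stands above its box of 1 to 3, and Krt7 and Krt19 stand at 0.

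Interval widths separated the 2 long genes, although their numbers were close. Over the 6 genes with intervals, 14 of 27 (51.9%) had exactly 201 bp, against 46.2% of all 120905 intervals and 40.4% of the intervals in the window of any protein-coding gene. In Cftr 7 of 8 (87.5%) had this width, the exception being the interval 1182 bp downstream of the start, with 233 bp. In Prom1 it was 1 of 9 (11.1%). Among genes of similar length with at least 5 intervals, the median share was 40.0% for the length of Cftr and 38.9% for that of Prom1. A share as high as that of Cftr or higher occurred in 0.762% of 787 such genes, and a share as low as that of Prom1 or lower in 4.64% of 1056. This comparison was not planned and was made after the widths of these 2 genes had been seen. Its percentages therefore describe the 2 genes and are not tests. All 3 Sox9 intervals had 201 bp, as had 2 of 4 in Spp1 and 1 of 2 in Muc1. Over 240 bp wide were 4 of the 27, 3 in Prom1 and that of Epcam, against 12.3% of all intervals. Width carries no read count, and the step that set it was not stated in the labels.

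**Figure D4:**
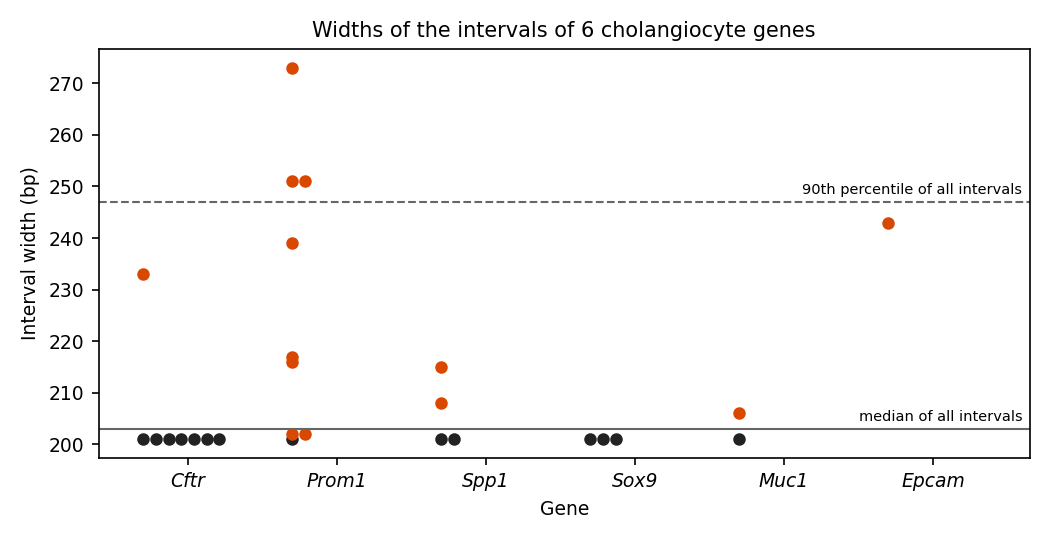
Points are the intervals of each gene by width in bp, black at 201 bp and orange above it, set side by side where widths are equal. The solid and dashed lines are the median (203 bp) and the 90th percentile (247 bp) of all intervals. Cftr has 7 of 8 points at 201 bp, and 3 Prom1 points lie above the dashed line.

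Other genes of bile duct biology, 40 in lists by role, had an interval in the span or flanks in 37 cases (92.5%), against 83.9% of all protein-coding genes. At an end 25 had one (62.5%), against 61.5% of all, and the median was 3, as over all protein-coding genes. The share of 201 bp intervals among their 191 was 30.4%. Of the simple epithelial keratins, Krt8 and Krt18, which hepatocytes share, had 3 each and Krt23 had 1, while Krt20 had none. All 12 genes for ductal transcription factors and Notch signalling had intervals (median 4.5, median length 37.5 kb), led by Notch2, a Notch receptor, with 17, Yap1, a growth-control coactivator, with 11 and Onecut2, a biliary and hepatic transcription factor, with 8. All 11 genes for secretion and cilia had them too (median 5, median length 51.8 kb), led by Pkhd1, the fibrocystin gene of 560 kb, with 27, the secretin receptor gene Sctr with 11 and the RNA-binding protein gene Bicc1 with 8. Adhesion genes had them in 5 of 7 cases, with 7 in Cdh1 (E-cadherin), 5 in the integrin gene Itgb4 and 4 in Cldn3, and the claudin genes Cldn4 and Cldn7 had none. The 6 surface and secreted products all had intervals (median 2.5), with 5 in the annexin gene Anxa4 and 3 each in Cd24a and Ggt1. These counts are not adjusted for gene length, and the shares of 12 of 12 and 11 of 11 stand beside 83.9% of all protein-coding genes. Set against genes of similar length, 2 of 4 keratin genes, 7 of 12 transcription factor and Notch genes, 4 of 7 adhesion genes, 6 of 11 secretion and cilia genes and 1 of 6 surface and secreted products lay above the median. Ties were not counted as above, and these counts have no share over all protein-coding genes beside them.

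The cholangiocyte genes were set beside 8 markers of each of 4 other liver cell types. With 8 genes per list, the counts do not rank the cell types. An interval in the span or flanks was present in 6 of 8 cholangiocyte, 7 of 8 hepatocyte, 8 of 8 sinusoidal endothelial, 8 of 8 stellate and 6 of 8 Kupffer cell genes. The share over all protein-coding genes was 83.9%. At a gene end the counts were 6 cholangiocyte, 6 hepatocyte, 5 endothelial, 7 stellate and 3 Kupffer cell genes, against 61.5% of all protein-coding genes. The median gene length was 10.5 kb for the cholangiocyte genes and 10.6 kb for the hepatocyte genes, with medians of 2.5 intervals for the cholangiocyte genes and 3.5 for the hepatocyte genes. The median lengths of the endothelial, stellate and Kupffer cell genes were 44.6, 33.2 and 21.8 kb, and their median numbers of intervals were 7, 5 and 1. Above the median of genes of similar length lay 3 of 8 cholangiocyte, 5 of 8 hepatocyte, 6 of 8 endothelial, 5 of 8 stellate and 2 of 8 Kupffer cell genes. Ties with the median were not counted as above it, and no share over all protein-coding genes is given for these counts. The leading genes were Cps1 (9) for hepatocytes, Stab2 (17) for endothelium, Reln (22) for stellate cells and Cd68 (5) for Kupffer cells, and none was found for Asgr1, Adgre1 and C1qa. Because markers of every type had intervals and the list has no strengths, the label of the tissue or of any cell type could not be checked further.

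**Figure D5:**
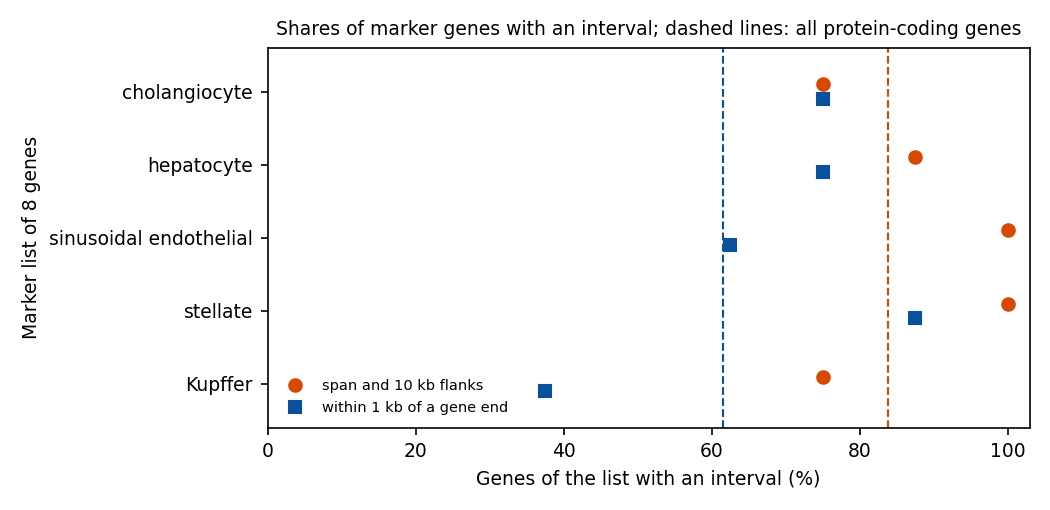
The x axis gives the percentage of the 8 markers of each cell type with an interval, as circles for the span and 10 kb flanks and squares for 1 kb around a gene end. The dashed lines give the same for all protein-coding genes (83.9% and 61.5%). Cholangiocyte genes stand at 75% for both measures.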

How the data were processed

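ATAC-seq libraries of livers from male mice, 3 of 129S1/SvImJ and 3 of C57BL/6J, were deposited by the authors as 1 combined list of intervals with 3 columns (chromosome, start, end). The submitters' processing notes name fastp, Bowtie2, HOMER and mm10; their versions, any shift of read ends, read filters, the threshold for a peak and how libraries were merged are not given in the sources. An unknown threshold decides how many weak sites were listed. Starts, counted from 0 in the file, were converted to 1-based positions.

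Gene spans and promoters came from RefSeq tables of GRCm38.p6, with 49943 genes on chromosomes 1 to 19, X and Y. An overlap of 1 bp counted. Distances from a start or gene end to the intervals of that gene run from interval centres. Gaps between intervals, stretches without an interval and distances to intervals outside a gene's window run from interval edges. Similar length meant within 25%. Counting was tested on simulated data. Python 3.11.15, numpy 2.4.6, pandas 2.3.3 and matplotlib 3.10.9 were used. With a combined list no test between groups could be run, and shares of all protein-coding genes are given in place of one. Counts above the median of similar-length genes have no such share. The members and lists were chosen with earlier results of these data known. Genes named are the 8 members, their protein-coding neighbours, and from each list those with most intervals (3 for bile duct lists, 1 for cell types) and up to 3 or 2 with none; further genes named around the keratins, Sox9 and Cftr were chosen after their values were seen. Alternatives were other flanks, end windows and length ranges, interval centres, removal of 201 bp intervals and joining within 500 bp.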

Additional observations from a re-analysis of the deposited data

How the results depend on the processing

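No paired analysis was possible because the list combines the libraries and names none, and for the same reason no replicate could be left out. Members with an interval numbered 6 of 8 in the main count, against 83.9% of all protein-coding genes. With no flank they numbered 5 (69.1% of all), with 5 kb 6 (80.0%) and with 50 kb 8 (92.7%). Without 201 bp intervals they numbered 5 (75.7%), and with interval centres or joining within 500 bp 6 (83.9%). The count thus rose and fell with the share over all genes. Members with an interval at an end numbered 6 in the main count (61.5% of all protein-coding genes). They numbered 2 with a window of 500 bp (56.0% of all) and 3 without 201 bp intervals (51.7%). With 5 kb (76.8%), centres (60.6%) or joining (61.5%) they numbered 6. The median per member was 2.5, and became 1 with no flank (1 over all protein-coding genes), 7.5 with 50 kb (8 over all) and 1 without 201 bp intervals (2 over all). Members above the median of similar-length genes numbered 3, also with lengths within 10% or 50% and with a flank of 50 kb, 2 without 201 bp intervals and 1 with no flank. No share over all protein-coding genes is given for that count. With a flank of 50 kb Krt19 had 1 interval and Krt7 had 3. Without 201 bp intervals Sox9 had 0, Cftr 1 and Prom1 8. Of 48 counts for single members under these settings, 33 stayed within 1.5 times and 15 did not. Counts of Krt19 and Krt7 that remained 0 were taken as staying. All counts with centres or joining stayed, whereas with a flank of 50 kb every member but Cftr moved. Depth is unknown, so a gene without an interval may have sites below the authors' threshold.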
